A study of Mus musculus with 72 samples.

Results

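Deletions of 200 bp to 10 kb were examined at 4 Cas9-cut bait sites in mouse neural progenitor cells. The junctions were mapped by LAM-HTGTS, a sequencing assay based on linear amplification from a primer near the cut, which reads outward from a known break (the bait) into whatever DNA (the prey) was joined to it. Members were chosen by a measured value, the distance of the prey end from the bait break: a junction on the bait chromosome and in the bait orientation was a member when its prey began at least 200 bp and less than 10 kb past the break, so that the DNA between was absent from the joined product. This rule was met by 180159 of 593366 junctions, or 30.4%, over 60 libraries. Members per library ran from 6 to 17919 with a median of 756.5, and the library totals ran from 133 to 37027 junctions with a median of 7764.5.

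The cells were of 2 kinds. The 45 Xrcc4/p53-deficient libraries came from neural progenitor cells (NPCs) of genotype NestinCre+ Xrcc4-/- p53-/-, derived from embryonic stem cells, and were repeats of 1 line, so their spread is technical. The 15 wild-type libraries came from primary neural stem and progenitor cells (NSPCs) of C57BL/6J embryos and were biological repeats. All cells received a Cas9 and guide RNA plasmid by nucleofection and were then kept for 96 h in solvent (DMSO), in aphidicolin (0.5 µM for 72 h, then 0.25 µM for 24 h), in ART558 (5 µM for 72 h, then 2.5 µM for 24 h) or in both drugs. Aphidicolin inhibits replicative DNA polymerases, and ART558 inhibits the polymerase activity of DNA polymerase θ (Pol θ). Wild-type cells were assayed with aphidicolin alone and with both drugs at the chromosome 6 and 14 baits, and Xrcc4/p53-deficient cells with all 4 treatments at the chromosome 6, 8 and 12 baits and with DMSO and aphidicolin at the chromosome 14 bait. The 2 genotypes were sequenced on different runs, so genotype, cell source and run cannot be told apart. All wild-type libraries shared 1 run. The treatments of Xrcc4/p53-deficient cells were split over runs: libraries with and without ART558 shared a run at chromosomes 6 and 12 without aphidicolin, and under aphidicolin at chromosome 6 only, with 1 aphidicolin library. In these cells ART558 and run therefore cannot be told apart at chromosome 8, nor under aphidicolin at chromosome 12. A further 7 DMSO libraries of the chromosome 6 bait, from other runs, are described and enter a test only where that is said.

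Broken ends are mainly rejoined by classical non-homologous end joining, which needs the ligase cofactor Xrcc4 and leaves ends nearly intact. In its absence, resected ends are joined by alternative routes, among them the route of Pol θ, which anneals short stretches of matching bases (microhomology) in the single-stranded tails and extends them. Pol θ can also copy nearby sequence when an annealing attempt fails, which leaves templated insertions. A deletion of this size places 1 junction between a bait end and a site far along the same chromosome, so that it records the overlap used, any bases added and the bases lost from the bait end.

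The 4 breaks lay outside protein-coding genes. In the mm10 build the chromosome 6 guide matched chr6:70950106-70950125, the chromosome 8 guide chr8:59477701-59477720, the chromosome 12 guide chr12:12994038-12994057 and the chromosome 14 guide chr14:83268830-83268849. The member windows were chr6:70940109-70949908, read toward lower coordinates, and chr8:59477903-59487702, chr12:12994254-13004053 and chr14:83269046-83278845, read toward higher ones. GENCODE vM21 annotates no gene in any of these windows. The chromosome 12 break lay in exon 5 of the long noncoding RNA gene Gm35208 (chr12:12987317-12994199, plus strand). The nearest protein-coding genes were Foxi3 at 6.42 kb from the chromosome 6 break, Mycn at 52.1 kb from the chromosome 12 break, BC030500 at 563 kb from the chromosome 8 break and Pcdh17 at 1175 kb from the chromosome 14 break. The targets are shown because every deletion starts at them. They are written 5′ to 3′ with the PAM, the motif Cas9 needs beside its target, in capitals, and Cas9 cuts 3 bases before it.
Chromosome 6 target: gagggttggaaatgctcgtaTGG
Chromosome 8 target: gtcgaccatatgctaatcttAGG
Chromosome 12 target: attccgccaaccctcgagatAGG
Chromosome 14 target: ggcttagttatagtaggggcTGG

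The last 30 bases of each bait end are shown because a bait end that lost fewer than 30 bases stops within them. They are written toward the break, which follows the last base.
Chromosome 6 bait end: agatgagcaagtagagggttggaaatgctc
Chromosome 8 bait end: aatcattttgatgtgcaaatcctacctaag
Chromosome 12 bait end: tcacattgctcacattccgccaaccctcga
Chromosome 14 bait end: tgtttacccccatggcttagttatagtagg

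Prey ends were spread over the windows, with a minority of positions met again and again. Of the 9800 positions of a window, 71.5% were used at least once at the chromosome 6 bait, 50.2% at chromosome 8, 53.7% at chromosome 12 and 41.2% at chromosome 14. These shares move with the number of members, 89929, 31120, 36012 and 23098 in the same order, and are not compared between baits. At the chromosome 6 bait, 48.9% of the used positions were met in at least 5 of 22 libraries. At the positions met in the most libraries, the commonest joined form mostly had an overlap longer than the usual 2 bp. At 334 bp from the chromosome 14 break it had 2 bp, in 12 of 35 junctions. At the chromosome 14 bait the position 229 bp from the break was used in all 15 libraries, each time with the 8-base overlap CATGGCTT and 12 bases lost from the bait end in at least 1 junction. Its commonest form made up 22 of 44 junctions at that position. At the chromosome 6 bait the position at 644 bp was used in 17 of 22 libraries, and 22 of its 71 junctions shared the 5-base overlap AGGGT. The position at 467 bp was used in 16 of 22, and 29 of its 81 junctions shared the 9-base overlap GTTGGAAAT, which lies inside the guide target. At the chromosome 12 bait the positions at 1043 and 561 bp were used in all 10 libraries, and at the chromosome 8 bait those at 836 and 758 bp in 10 of 11. Their commonest forms made up 11 of 41, 11 of 30, 9 of 40 and 11 of 36 junctions in the same order. The median overlap over all junctions, with inserted bases as negative values, was 2 bp at 1043 bp and 0 bp at 836 bp. The commonest joined form at each of these 7 positions is given with the overlap in capitals, bait sequence before it and prey sequence after it.
Chromosome 6, 644 bp: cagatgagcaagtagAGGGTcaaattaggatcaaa
Chromosome 6, 467 bp: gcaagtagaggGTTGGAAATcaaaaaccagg
Chromosome 14, 229 bp: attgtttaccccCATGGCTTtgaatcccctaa
Chromosome 12, 561 bp: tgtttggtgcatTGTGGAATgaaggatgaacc
Chromosome 12, 1043 bp: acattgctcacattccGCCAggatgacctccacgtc
Chromosome 8, 836 bp: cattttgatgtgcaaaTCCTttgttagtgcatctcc
Chromosome 8, 758 bp: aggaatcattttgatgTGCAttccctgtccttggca

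These joined forms are the mm10 sequences on either side of the aligned ends, not the reads themselves. The same positions were used in libraries with and without ART558: the chromosome 14 position at 229 bp in 11 of 11 libraries without ART558 and 4 of 4 with it, and the chromosome 12 position at 1043 bp in 4 of 4 and 6 of 6. Per 1000 members they were used 1.75 times without ART558 and 5.80 times with it at the first, and 0.99 and 2.55 times at the second, as descriptions pooled over libraries. At the first all libraries with ART558 were wild-type, while most members without it came from Xrcc4/p53-deficient cells. Drug, genotype, cell source and run cannot be told apart there.

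The size of the class differed widely between treatments, as a description, since distance chose the members. In Xrcc4/p53-deficient cells members made up 44.4% ± 7.24 (SD, n = 18) of the junctions of a DMSO library, 28.7% ± 7.07 (n = 9) with aphidicolin, 12.6% ± 3.07 (n = 8) with ART558 and 5.28% ± 2.58 (n = 9) with both drugs. The lowest DMSO library held 30.8% and the highest ART558 library 17.7%, so the shares of the DMSO libraries lay above those of all libraries with ART558. In wild-type cells the share was 4.60% ± 1.55 (n = 6) with aphidicolin and 3.74% ± 1.13 (n = 8) with both drugs, and these ranges overlapped. A library holds a fixed sum of 100%, so a lower share may stand for fewer deletions of this size or for more of other junctions. Set against deletions under 200 bp of the same libraries, there were 3.46 ± 0.96 members per short deletion with DMSO, 2.51 ± 0.56 with aphidicolin, 0.65 ± 0.11 with ART558 and 0.49 ± 0.16 with both drugs, and 0.49 ± 0.10 and 0.33 ± 0.05 in the wild-type groups. These means leave out 1 ART558 library with 6 members and 1 wild-type aphidicolin library with 14, which were too small for shares.

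**Figure D1:**
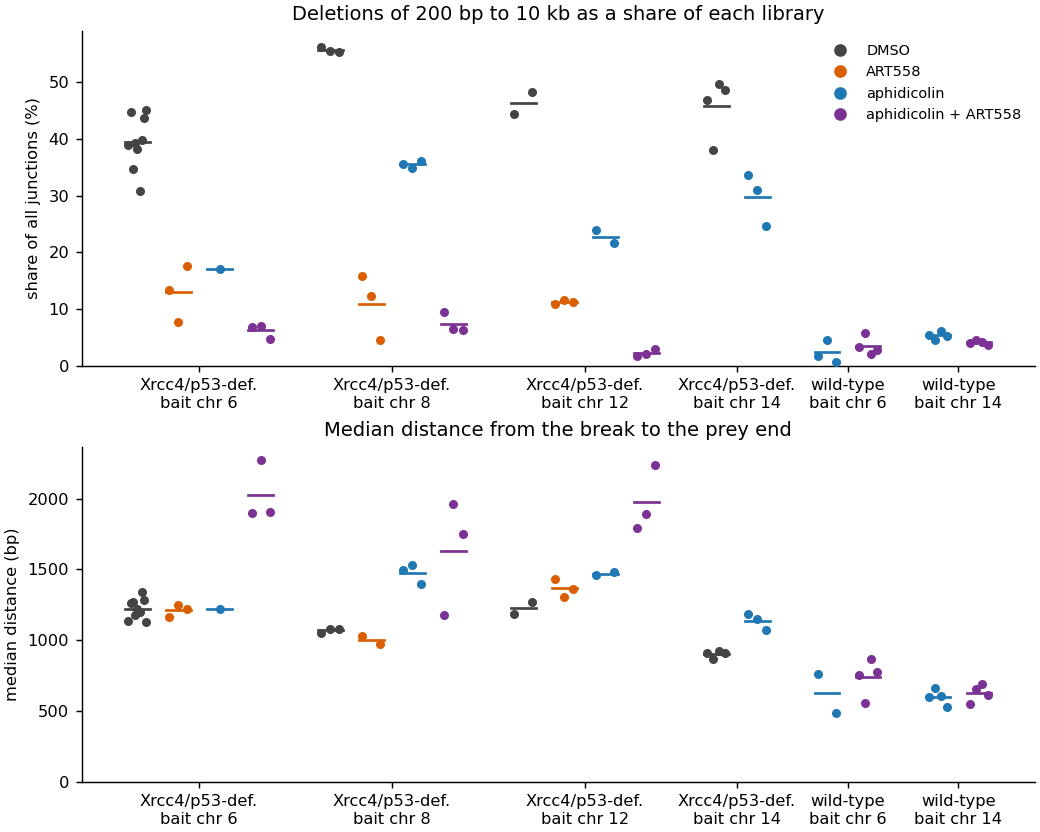
Upper panel: members as a percentage of all junctions of each library (points) with the group mean (bar), by genotype, bait and treatment. Lower panel: median distance in bp from the break to the prey end in each library with at least 20 members. The shares of libraries with ART558 end at 17.7%, under the lowest DMSO library of Xrcc4/p53-deficient cells at 30.8%.

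Both edges of the class were cuts through a falling curve. Over all baits, 7317 junctions fell 150 to 199 bp from the break, just outside the class, and 5818 at 200 to 249 bp, just inside. At the far edge, 294 junctions fell in the last 500 bp under 10 kb and 211 in the next 500 bp. At the chromosome 6 bait with DMSO the density was nearly level up to 1 kb, 52.3% of members per kb at 200 to 300 bp and 47.1% at 750 to 1000 bp, and then fell to 12.6% at 2 to 3 kb, 2.5% at 5 to 6 kb and 0.40% at 9 to 10 kb. At the chromosome 14 bait with DMSO the fall began at once, from 105% per kb at 200 to 300 bp to 37.2% at 1 to 1.5 kb and 6.6% at 2 to 3 kb.

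With both drugs the members of Xrcc4/p53-deficient cells lay farther out. At the 3 baits that had all treatments, the mean of the library medians was 1217, 1069 and 1229 bp with DMSO at chromosomes 6, 8 and 12, and 1210, 1000 and 1365 bp with ART558, so ART558 alone was longer at chromosome 12 only. With aphidicolin it was 1221.5 bp in 1 library, 1473 and 1470 bp, and with both drugs 2027, 1628.5 and 1972 bp. Over all libraries of a treatment, which for DMSO and aphidicolin include the shorter chromosome 14 members and for DMSO the 7 further libraries, the median distance was 1126 bp ± 146 with DMSO, 1216 bp ± 157 with ART558, 1331 bp ± 175 with aphidicolin and 1876 bp ± 317 with both drugs. Members over 2 kb made up 25.8% ± 6.25, 30.4% ± 6.43, 32.4% ± 5.89 and 46.7% ± 7.38 in the same order, and members of 5 to 10 kb 3.90% ± 1.35, 5.52% ± 1.58, 6.11% ± 0.78 and 13.4% ± 3.31. Of the 9 libraries with both drugs, 8 had medians of 1746.5 to 2273 bp, above the highest of the other Xrcc4/p53-deficient libraries at 1530 bp. The exception, a chromosome 8 library with 89 members, had a median of 1179 bp. An exponential fall truncated to 2 to 10 kb was fitted to the members beyond 2 kb of each library. Its length constant was 1647 bp ± 210 with DMSO, 1699 bp ± 315 with ART558, 1874 bp ± 247 with aphidicolin and 2754 bp ± 574 (n = 8) with both drugs. Wild-type members were shorter, with medians of 606 bp ± 97.1 with aphidicolin and 681 bp ± 113 with both drugs, between 487 and 868 bp in each library kept, below the Xrcc4/p53-deficient chromosome 14 aphidicolin libraries at 1069 to 1184.5 bp. Only 8.52% ± 5.05 and 19.4% ± 10.1 of wild-type members exceeded 2 kb. All of these lengths were set by the measure that defines the class and are given with no test.

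**Figure D2:**
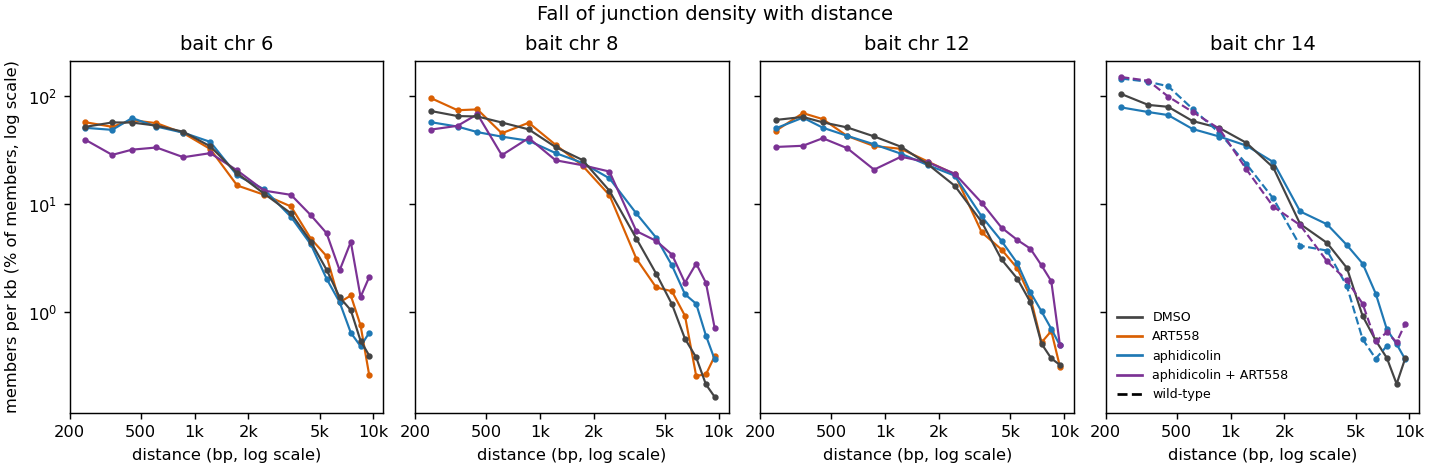
Density of members (percent of members per kb, log scale) against distance from the break (bp, log scale), as the mean over libraries of each treatment, one panel per bait; solid lines are Xrcc4/p53-deficient cells and dashed lines wild-type cells (shown for chromosome 14 only, since the chromosome 6 wild-type libraries held 14 to 76 members). The 7 further chromosome 6 DMSO libraries are left out of the curve. With both drugs the curves start lower and fall more slowly than with DMSO at chromosomes 6, 8 and 12.

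The commonest overlap was 2 bp. It had the highest mean share in each group but wild-type chromosome 6 with both drugs. There direct joining, a junction with no overlap and no inserted base, averaged 26.5% and the 2 bp overlap 22.4%, but direct joining was the higher of the 2 in 1 of 4 libraries, and without that library the means were 17.2 and 28.3%. Shares of overlaps are given among junctions with 0 to 10 bp. With DMSO, averaged over the 18 Xrcc4/p53-deficient libraries, 13.2% ± 2.22 were direct, 22.6% ± 2.52 had 1 bp, 32.6% ± 1.28 had 2 bp, 18.2% ± 1.56 had 3 bp and 13.4% ± 3.00 had 4 or more. The overlap was taken from the aligner, which tolerates mismatches: without ART558 overlaps of 2 bp matched the genome exactly in 100% of junctions, those of 4 bp in 96.0%, those of 6 bp in 47.9% and those of 8 bp in 21.0%.

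ART558 moved the overlaps from short to long. Overlaps of 4 or more bases rose from 12.9% with DMSO to 28.5% with ART558, by 15.6 percentage points (SE 1.03), as means over the chromosome 6, 8 and 12 baits with equal weight. The chromosome 6 libraries had 11.8 and 12.2% with DMSO and 27.3, 20.5 and 22.0% with ART558. The chromosome 8 libraries had 14.3, 13.0 and 14.03% against 32.1 and 29.6%, and the chromosome 12 libraries 14.1 and 11.9% against 30.6, 32.7 and 31.0%. No ART558 library overlapped its DMSO group at any of the 3 baits, and the adjusted p was 0.0042 (exact permutation test of library labels within baits, two-sided, p = 0.001, the smallest that 1000 relabelings can give). The overlap of 2 bp fell by 8.43 points, from 31.9 to 23.4% (adjusted p = 0.0042, exact permutation test). Within 1 sequencing run, at chromosomes 6 and 12, the rise in long overlaps was 14.8 points (adjusted p = 0.027, exact permutation test). It was 14.1 points with exact overlaps only and 13.6 points with equal weight for each prey position. These measures were added after the data had been seen, with p adjusted over their own 20 tests.

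In the presence of aphidicolin long overlaps also rose and 2 bp overlaps fell. Overlaps of 4 or more bases rose from 19.3 to 28.8% with the addition of ART558, by 9.54 points (SE 2.08), and those of 2 bp fell by 10.1 points, from 32.8 to 22.7% (adjusted p = 0.0042 for both, exact permutation test, p = 0.00125, the smallest that 800 relabelings can give). All 9 libraries with both drugs lay between 22.6 and 34.6%, above the 6 aphidicolin libraries of the same baits at 18.3 to 20.1%. Aphidicolin alone raised long overlaps over DMSO by 5.14 points, from 14 to 19.1%, at the 4 baits (adjusted p = 0.0045, exact permutation test). With ART558 present aphidicolin made a difference of 0.34 points (SE 1.82, adjusted p = 0.91, exact permutation test). These contrasts share libraries: the DMSO and aphidicolin groups each enter more than 1 of them.

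**Figure D3:**
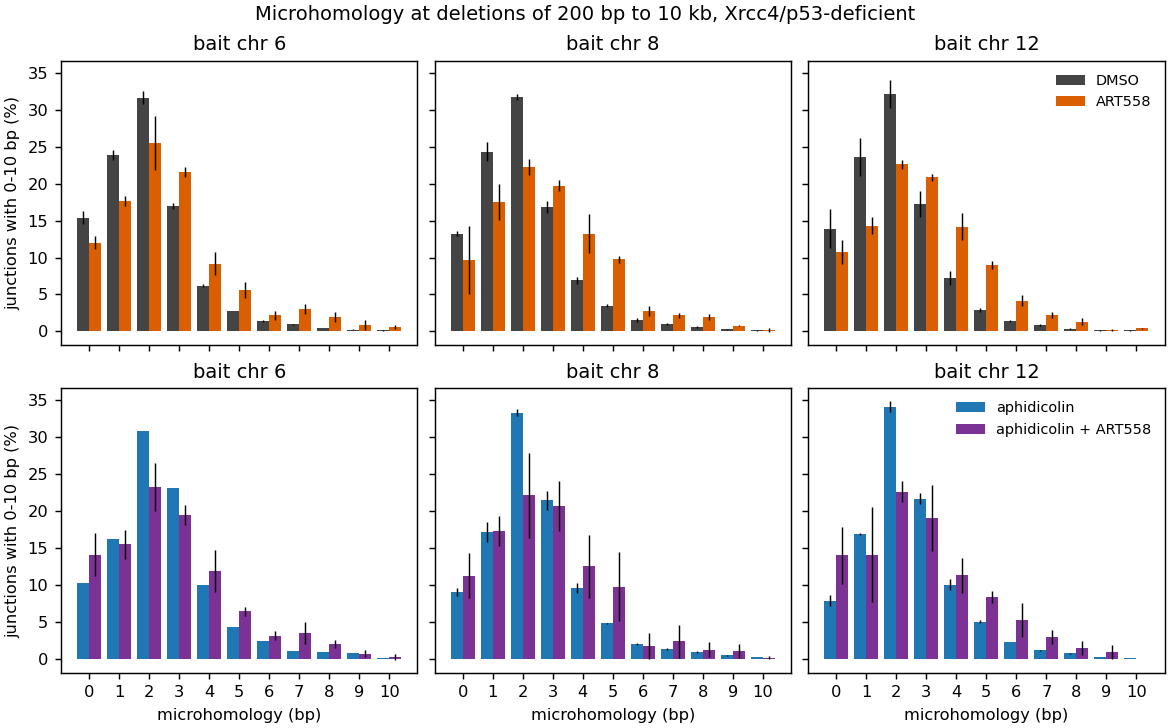
Percentage of junctions at each overlap from 0 to 10 bp (among junctions with 0 to 10 bp) in Xrcc4/p53-deficient cells, by bait; bars are means over libraries and error bars are SD where a group has more than 1 library. Upper row DMSO and ART558, lower row aphidicolin and both drugs. The bars at 2 bp are lower and those from 4 bp higher with ART558.

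Direct joining moved by fewer points, in opposite directions without and with aphidicolin, and the second change did not pass the threshold. ART558 lowered it from 14.2 to 10.8%, by 3.35 points (SE 1.05, adjusted p = 0.013 over 18 tests, exact permutation test). The DMSO libraries had 16.02 and 14.7% at chromosome 6, 13.2, 13.6 and 12.9% at chromosome 8 and 12.04 and 15.8% at chromosome 12. The ART558 libraries had 11.5, 11.6 and 13.0%, 6.42 and 13.0%, and 10.4, 9.40 and 12.5%, and the groups overlapped at chromosomes 8 and 12. With aphidicolin the difference was the other way, from 9.05 to 13.1%, a rise of 4.06 points that did not pass the threshold (SE 1.53, adjusted p = 0.053, exact permutation test). The ART558 differences with and without aphidicolin differed from each other by 7.40 points (SE 1.92, permutation test with 100000 draws, p = 0.00013, adjusted p = 0.000895 over 11 tests). This test and its alternative below permuted ART558 labels only. The null was thus no ART558 effect in either setting, not 2 equal effects. With aphidicolin alone direct joining fell by 4.16 points, from 13.2 to 9.08% (adjusted p = 0.0021, exact permutation test). When each prey position had equal weight, an alternative chosen after the data had been seen, the ART558 fall was 0.91 points (adjusted p = 0.38, exact permutation test) and the rise with aphidicolin 4.14 points (adjusted p = 0.034), and the 2 differed by 5.05 points (permutation p = 0.0094). Without the members under 500 bp the fall was 2.44 points (adjusted p = 0.064), and within 1 sequencing run it was 3.25 points (adjusted p = 0.09, exact permutation tests).

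Insertions rose with ART558. Members with at least 1 base of neither bait nor prey between the ends made up 26.1% with DMSO and 30.8% with ART558, a difference of 4.78 points (SE 1.28, adjusted p = 0.013, exact permutation test). The 7 further chromosome 6 DMSO libraries had 19.3 to 27.6%, below the 31.6 and 29.5% of the 2 tested there. The group means were 23.4 and 30.5%, farther apart than DMSO and ART558. With the 7 added the difference was 6.64 points (adjusted p = 0.0011, exact permutation test). Within 1 sequencing run it was 3.00 points and did not pass the threshold (adjusted p = 0.17, exact permutation test). The chromosome 8 libraries had 24.4, 23.7 and 24.2% with DMSO and 29.3 and 35.6% with ART558, while at chromosome 6 the DMSO values of 31.6 and 29.5% lay among the ART558 values of 34.2, 28.6 and 32.7%. Under aphidicolin the share rose from 18.4 to 36.1%, by 17.7 points (SE 3.36, adjusted p = 0.0045, exact permutation test, p = 0.00125, the smallest possible), with no overlap at any bait: the 6 aphidicolin libraries had 14.9 to 22.1% and the 9 libraries with both drugs 23.6 to 46.4%. Aphidicolin alone lowered insertions by 6.59 points, from 25.2 to 18.6% (adjusted p = 0.0014, exact permutation test), with no overlap at any of the 4 baits. With ART558 present aphidicolin raised the share by 5.24 points, which did not pass the threshold (SE 2.81, adjusted p = 0.13, exact permutation test). It was 7.04 points and passed without replicate 1 with both drugs at chromosome 8, the library with 89 members (adjusted p = 0.01, exact permutation test). As means over the chromosome 6, 8 and 12 baits, insertions of 10 or more bases made up 4.23% of members with DMSO (2.67 to 6.14% in 7 libraries), 2.49% with aphidicolin (1.55 to 3.61% in 6), 7.96% with ART558 (6.76 to 9.26% in 8) and 11.3% with both drugs (5.62 to 16.6% in 9). Single-base insertions in the same libraries were at 7.64, 5.76, 6.90 and 6.30%, and their ranges overlapped between all 4 treatments. Of 12404 single inserted bases, read in the direction of the sequenced strand, 36.1% were A, 29.8% T, 17.3% C and 16.8% G.

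The content of the longer insertions changed with ART558. Inserts of 12 or more bases, 6144 in all, were searched for whole and exact within 200 bp of the break or of the prey end, on both strands. In Xrcc4/p53-deficient cells 2206 of 4858 were found there with DMSO (45.4%), 154 of 447 with aphidicolin (34.5%), 26 of 409 with ART558 (6.36%) and 16 of 341 with both drugs (4.69%). In 1 region per bait of the same reach, 20 kb from the break on the bait side, 0 of the 6144 were found. No such region was searched for the prey ends. By library and bait, the share found was 42.8% with DMSO and 5.15% with ART558 (difference −37.6 points, SE 1.81, adjusted p = 0.0042, exact permutation test, p = 0.001, the smallest possible). At chromosome 6 the DMSO libraries had 41.9 and 43.9% and the ART558 libraries 4.65, 3.85 and 7.94%. At chromosome 12 they had 33.3 and 42.4% against 5.45, 4.08 and 10.0%. At chromosome 8 the DMSO libraries had 50, 45.4 and 47.1%, and of the ART558 libraries 1 had none found among 21 inserts and the other 6.90% of 29. Among Xrcc4/p53-deficient libraries with at least 10 inserts, none with ART558 exceeded 10.0%, and the lowest DMSO library had 27.3% of 11. With aphidicolin the share went from 36.1 to 4.43% on adding ART558 (adjusted p = 0.005, exact permutation test, p = 0.0025, the smallest possible). When 10 consecutive bases of the insert sufficed, the difference with aphidicolin was −18.3 points and did not pass the threshold (adjusted p = 0.14, exact permutation test), while that without aphidicolin was −25.5 points and did (adjusted p = 0.0042). These measures too were added after the data had been seen.

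Most of the copied inserts were inverted. Whole inserts on the opposite strand around the break made up, in Xrcc4/p53-deficient cells, 28.2% of those with DMSO, 18.8% with aphidicolin, 1.47% with ART558 and 2.35% with both drugs. Same-strand copies at the break made up 13.2, 11.4, 3.18 and 1.47% in these cells, and copies from around the prey end 2.68% or less for either strand. Of 1480 inverted copies over all libraries, 1372 of them with DMSO in Xrcc4/p53-deficient cells, 1323 (89.4%) had their template on the bait side of the break, and 985 of those (74.5%) within 40 bases of it. In Xrcc4/p53-deficient cells the template was on the bait side in 1238 of 1372 with DMSO and 73 of 84 with aphidicolin, against 0 of 6 with ART558 and 2 of 8 with both drugs. The template lay wholly within the bait bases lost from the junction in 22.3% of these, wholly within the bait bases kept in 28.5%, and across the bait end in the rest. By library, the share of inserts with 10 consecutive inverted bases at the break was 45.4% with DMSO and 10.3% with ART558 (adjusted p = 0.0042), and 33.8% with aphidicolin and 7.92% with both drugs (adjusted p = 0.005, exact permutation tests). It was 13.3 points lower with aphidicolin than with DMSO at the 4 baits (adjusted p = 0.005, exact permutation test). Inserts with a stretch of 10 bases on the same strand at the break, and no inverted one there, were at 17.7% with DMSO and 23.7% with ART558. These shares were pooled over Xrcc4/p53-deficient libraries and not tested. Inserts with an inverted stretch, 43.9% with DMSO and 10.3% with ART558 when pooled, could not enter this class, so its 2 shares are not compared. Of inserts of 20 or more bases, 51.3% with DMSO, 52.3% with aphidicolin, 92.5% with ART558 and 99.2% with both drugs occurred nowhere in the mm10 genome as a whole exact run; their source was not determined.

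The inverted inserts met in the most libraries are shown with the last 40 bases of the bait end, in which capitals mark the bases whose reverse complement was inserted. The chromosome 6 insert was found in 24 junctions of 10 libraries at 24 prey positions, the chromosome 8 insert in 16 junctions of 5 libraries, the chromosome 12 insert in 6 junctions of 2 libraries and the chromosome 14 insert in 3 junctions of 3 libraries. None of these junctions came from a library with ART558, and such libraries held 5.18% of the members at chromosome 6, 5.96% at chromosome 8, 9.79% at chromosome 12 and 3.73% at chromosome 14. The ART558 libraries at chromosome 14 were all wild-type.
Chromosome 6 insert: catttccaaccctcta
Chromosome 6 bait end with template: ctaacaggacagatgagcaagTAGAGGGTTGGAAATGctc
Chromosome 8 insert: tttgcacatcaaaatgatt
Chromosome 8 bait end with template: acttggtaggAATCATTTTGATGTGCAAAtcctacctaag
Chromosome 12 insert: gtgagcaatgtga
Chromosome 12 bait end with template: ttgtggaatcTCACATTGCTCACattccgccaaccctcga
Chromosome 14 insert: tataactaagccatgggggtaaaca
Chromosome 14 bait end with template: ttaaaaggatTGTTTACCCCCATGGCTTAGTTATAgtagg

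**Figure D4:**
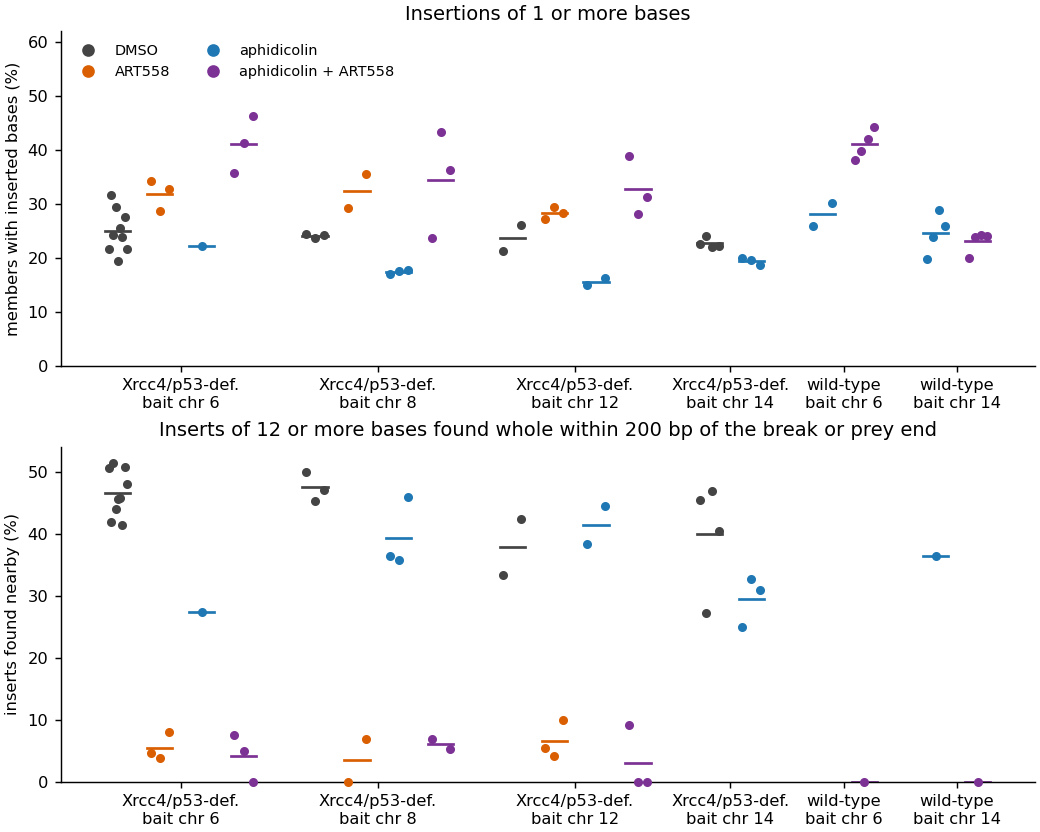
Upper panel: percentage of members with at least 1 inserted base in each library (points) with the group mean (bar), by genotype, bait and treatment. Lower panel: percentage of inserts of 12 or more bases found whole within 200 bp of the break or prey end, for libraries with at least 10 such inserts. With ART558 the upper values are higher under aphidicolin at the 3 baits of Xrcc4/p53-deficient cells that had both drugs, and the lower values are at 10.0% or less in all libraries.

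The bait end lost more bases with ART558. Bait-end loss is the number of bases between the break and the last bait base in the junction, with overlapping bases counted to the bait. In Xrcc4/p53-deficient cells the mean loss rose from 15.3 bases with DMSO to 23.6 with ART558, by 8.32 bases (SE 0.49, adjusted p = 0.0045, exact permutation test, p = 0.001, the smallest possible), with no overlap at any of the 3 baits, and by 6.45 bases within 1 sequencing run (adjusted p = 0.038, exact permutation test). At chromosome 8 the libraries had 13.5, 13.8 and 13.6 bases with DMSO and 25.5 and 25.8 with ART558. At chromosome 6 they had 13.5 and 13.8 against 19.1, 17.1 and 19.7, and at chromosome 12 18.0 and 19.3 against 26.6, 25.3 and 27.8. Under aphidicolin the loss rose from 16.1 to 23.4 bases, by 7.35 (SE 0.59, adjusted p = 0.0045, exact permutation test), again with no overlap. Aphidicolin itself made differences of 0.97 bases without ART558 (SE 0.68, adjusted p = 0.073) and −0.17 bases with it (SE 0.61, adjusted p = 0.84, exact permutation tests). The first of these passed with the median per library (1.60 bases, adjusted p = 0.0014), with equal weight for each prey position (1.57 bases, adjusted p = 0.024) and from 500 bp (1.40 bases, adjusted p = 0.0055, exact permutation tests). As means over these 3 baits, losses of 20 or more bases were seen in 25.8% of members with DMSO (23.1 to 29.5% in 7 libraries), 28.9% with aphidicolin (25.1 to 31.1% in 6), 46.9% with ART558 (35.1 to 54.9% in 8) and 49.2% with both drugs (41.3 to 62.03% in 9). Losses of 2 bases or fewer went the other way, at 18.9, 14.1, 8.93 and 7.03%. Without ART558 the single commonest bait end at each of the 4 baits was 2 bases short of the break, in 6.28 to 8.57% of members. The loss that could be seen was limited by the bait left after the primer and reached 63 bases at chromosome 6, 92 at chromosome 8, 95 at chromosome 12 and 132 at chromosome 14, so levels are not compared between baits.

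**Figure D5:**
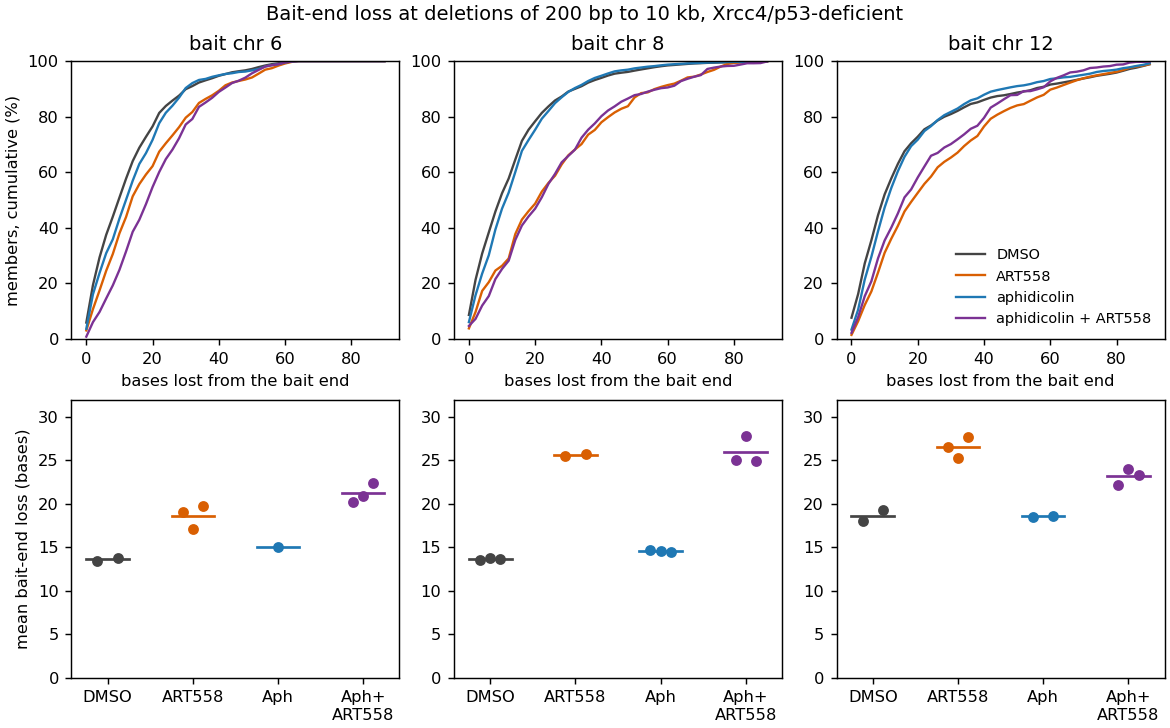
Upper row: cumulative percentage of members by bases lost from the bait end, mean over libraries of each treatment in Xrcc4/p53-deficient cells, at the chromosome 6, 8 and 12 baits. Lower row: mean loss in bases of each library (points) with the group mean (bar). The libraries with ART558 lie above those without it at all 3 baits.

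Direct joining fell with deletion length in Xrcc4/p53-deficient cells without ART558. In the 13 Xrcc4/p53-deficient libraries of the chromosome 6, 8 and 12 baits tested, direct joining was 14.5% at 200 bp to 1 kb and 9.78% at 1 to 10 kb, lower by 4.68 points in the longer deletions of 13 of 13 libraries (SE 0.68, exact sign-flip permutation test, p = 0.000244, the smallest possible, adjusted p = 0.000895). Outside the test it was lower in 7 of the 7 further chromosome 6 libraries and 5 of 7 chromosome 14 libraries. By distance, in the tested libraries, it was 14.8% ± 4.35 at 200 to 500 bp, 14.2% ± 4.44 at 500 bp to 1 kb, 11.1% ± 3.30 at 1 to 2 kb, 8.78% ± 1.63 at 2 to 5 kb and 7.64% ± 2.26 at 5 to 10 kb. Over the same bins overlaps of 4 or more bases went from 13.1% ± 3.20 through 12.5% ± 3.71, 15.9% ± 3.89 and 18.8% ± 3.75 to 24.6% ± 3.61, and insertions from 26.0% ± 6.62 through 25.6% ± 7.60, 21.4% ± 5.30 and 17.3% ± 2.96 to 16.01% ± 2.40, as descriptions. With ART558 the difference in direct joining between long and short members was −0.25 points (SE 1.11, exact sign-flip permutation over 17 libraries, p = 0.82, lower in 10 of 17). Overlaps of 4 or more bases then ran between 27.0 and 30.5% in all 5 bins. Whether the length trends with and without ART558 differ was not tested. Bait-end loss differed between long and short members by −0.46 bases without ART558 (SE 0.37, p = 0.24) and 1.19 bases with it (SE 1.03, p = 0.29, exact sign-flip permutation tests). The first turned to 0.88 bases with the median per library (adjusted p = 0.049, exact sign-flip permutation test). In wild-type cells neither difference passed on the means: direct joining was 1.57 points lower in the longer members, a difference of −1.57 points seen in 6 of 9 libraries (SE 1.83, adjusted p = 0.51), and bait-end loss 4.66 bases higher, in 8 of 9 (SE 1.93, adjusted p = 0.086, exact sign-flip permutation tests). The latter was 6.5 bases and passed with the median per library (adjusted p = 0.049, exact sign-flip permutation test).

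Members were set against deletions under 200 bp, deletions of 10 kb to 1 Mb and translocations of the same libraries. Direct joining was lower in members than in deletions under 200 bp, 11.6 against 19.7%, in the same 13 of 13 Xrcc4/p53-deficient libraries without ART558 (difference −8.09 points, SE 0.71, exact sign-flip permutation test, p = 0.000244, the smallest possible, adjusted p = 0.000895). It was also lower in the 7 further chromosome 6 libraries and the 7 chromosome 14 libraries, which were not tested. In wild-type cells with aphidicolin it was lower in 6 of 6 libraries, 12.1 against 18.9% (difference −6.85 points, SE 0.55, exact sign-flip permutation test, p = 0.031, the smallest possible, adjusted p = 0.069, which did not pass). In deletions of 10 kb to 1 Mb, as a description, direct joining was 6.50% ± 3.02 with DMSO and 11.7% ± 10.3 with ART558 in Xrcc4/p53-deficient cells, and 35.5% ± 23.3 in wild-type cells with aphidicolin. No minimum of such junctions was set for a library, and the wild-type values ran from 0 to 65%. The DMSO mean also covers the chromosome 14 and the 7 further chromosome 6 libraries. Against translocations to other chromosomes, the difference in direct joining, members minus translocations, was −5.55 points with DMSO and −22.2 points with ART558. The ART558 effect in members minus that in translocations was thus −16.6 points (SE 2.02, exact permutation test, p = 0.001, the smallest possible, adjusted p = 0.0028). In translocations of these libraries direct joining was 19.7% with DMSO (n = 7) and 33.0% with ART558 (n = 8), as means over the 3 baits. The sign of the DMSO difference depended on the libraries: in the 7 further chromosome 6 DMSO libraries translocations had 7.44 to 9.23% and members 10.5 to 16.2%, while in the 2 tested there translocations had 18.98 and 21.9%. With the 7 added, an alternative chosen after the data had been seen, the ART558 effect in members minus that in translocations was −19.3 points (adjusted p = 0.0005, exact permutation test).

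Wild-type cells gave few members, 2022 in all 15 libraries, and their comparisons were imprecise. At the chromosome 14 bait, where each library held 170 to 285 members, direct joining was 16.2, 14, 13.1 and 13.8% with aphidicolin and 20.7, 11.1, 8.84 and 17.3% with both drugs. The groups overlapped, with means of 14.3 and 14.5%. Insertions there were 19.8, 23.9, 28.9 and 25.9% against 20, 23.9, 24.2 and 23.9%, which also overlapped. At the chromosome 6 bait, in 2 and 4 libraries of 27 to 76 members, the groups did not overlap: direct joining was 5 and 10.3% with aphidicolin against 12.8 to 54.5% with both drugs, and insertions 25.9 and 30.2% against 38.2 to 44.2%. Over both wild-type baits the ART558 difference was 9.53 points in direct joining (SE 6.25, adjusted p = 0.27) and 5.67 points in insertions (SE 1.64, adjusted p = 0.11, exact permutation tests). Insertions of at least 3 bases differed by 9.72 points and passed (adjusted p = 0.038, exact permutation test), while insertions of any length differed by −4.81 points with equal weight for each prey position (adjusted p = 0.086, exact permutation test). Bait-end loss rose by 5.71 bases, from 19.9 to 25.6 (SE 1.96, adjusted p = 0.021, exact permutation test). This call was lost in most alternatives, among them equal weight for each prey position (3.76 bases, adjusted p = 0.16) and chromosome 14 alone (4.62 bases, adjusted p = 0.13, exact permutation tests). Overlaps of 4 or more bases went from 31.6 to 11.2%, a fall of 20.4 points (adjusted p = 0.019, exact permutation test), opposite in sign to the change in Xrcc4/p53-deficient cells. The fall rested on the chromosome 6 bait, whose aphidicolin values of 40 and 41.4% came from 20 and 29 junctions, and was 10.1 points with exact overlaps only (adjusted p = 0.16, exact permutation test).

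Between genotypes under the same treatment and bait, no difference in the 3 measures passed the threshold. Xrcc4/p53-deficient minus wild-type differences were −4.99 points in direct joining (SE 5.63, adjusted p = 0.27), −3.71 points in insertions (SE 1.89, adjusted p = 0.11) and 2.95 bases in bait-end loss (SE 1.88, adjusted p = 0.27, exact permutation tests). The loss differed by 6.86 bases at chromosome 6 and −4.18 at chromosome 14 with aphidicolin, and by 6.18 at chromosome 6 with both drugs. At the chromosome 14 bait with aphidicolin the direct joining of the 3 Xrcc4/p53-deficient libraries, 8.96, 10.1 and 8.42%, lay below all 4 wild-type values of 13.1 to 16.2%. At chromosome 6 with aphidicolin the single Xrcc4/p53-deficient library, at 10.28%, lay between the 2 wild-type libraries at 5 and 10.34%. At chromosome 6 with both drugs 3 Xrcc4/p53-deficient libraries had 10.7, 16.1 and 15.4% and 4 wild-type libraries 12.8 to 54.5%, overlapping, with means of 14.1 and 26.5%. With equal weight for each prey position the genotype difference in direct joining was −7.97 points and passed (adjusted p = 0.044, exact permutation test), and the median in place of the mean bait-end loss gave 6.63 bases (adjusted p = 0.0014, exact permutation test). The difference between genotypes in the ART558 effect on direct joining could be tested at chromosome 6 only, with 1 aphidicolin library of Xrcc4/p53-deficient cells, and was −15.1 points (SE 15.1, exact permutation test, p = 0.48). This test too permuted ART558 labels, with no ART558 effect in either genotype as its null.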

How the data were processed

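The authors trimmed and demultiplexed the LAM-HTGTS reads, aligned them with Bowtie2 to mm10 and deposited 1 filtered junction table per library; per the labels the build is mm10. Their values are other fields than counts: the deposited coordinates, strands and read positions of each junction, with replicates not pooled. Distances were taken from the Cas9 cut 3 bases before the PAM. Overlap was the bait's end in the read minus the prey's start plus 1; negative values are inserted bases. A deposited row stands for 1 junction, not 1 cell, and repeated amplification of 1 event cannot be told apart from separate events: 171320 members differed in prey position, bait end or overlap within a library. An incomplete last line of 1 table was dropped. Depth was set by junctions per library, and 2 libraries with fewer than 20 members entered no test.

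Libraries were the unit. Labels were permuted within baits, all relabelings enumerated or 100000 drawn, two-sided, and differences averaged over baits with equal weight; p-values were adjusted by Benjamini-Hochberg over the 18 contrasts, separately over 20 added and 11 within-library or interaction tests, with a threshold of 0.05. SE values come from the spread between libraries. The steps were tested on simulated data and run in Python 3.11.15 with NumPy 2.4.6, pandas 2.3.3, SciPy 1.17.1 and Matplotlib 3.10.9. Same-numbered libraries shared only a number: 21 of 39 pairs correlated above 0.1. The other 12 samples of the series are of another assay and were not analysed here. The members, measures and positions named were chosen with earlier results of these data known; positions were among the 3 per bait met in the most libraries, and inserts those met in the most libraries. Alternatives comprised other distance limits, repeats counted once, minimum members, pooling over baits, 1 sequencing run, a replicate block and each library left out.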

Additional observations from a re-analysis of the deposited data

Results flagged for a closer look

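One DMSO library of the chromosome 14 bait stood apart from its group of 4 in Xrcc4/p53-deficient cells: replicate 2, with 434 members against 3913 to 4851 in the others. Its direct joining was 8.48%, with the others at 10.8 to 11.2%. Its median distance was 865 bp, with the others at 911 to 920 bp. Its overlaps of 4 or more bases made up 23.6%, with the others at 14.96 to 15.2%. In wild-type cells with both drugs at the chromosome 14 bait, replicate 1 had insertions in 20% of members, with the others at 23.9 to 24.2%. In all 35 sets of values were examined for such gaps and 4 were found, and chance gives about 1 in 20.

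The effect of ART558 on direct joining differed between settings by a test of the difference itself. With aphidicolin it was 7.40 points above that without aphidicolin (permutation test, p = 0.00013), and it was 5.05 points above with equal weight for each prey position. In members it was 16.6 points below that in translocations of the same libraries (−16.6 points, exact permutation test, p = 0.001, the smallest possible). No cause of these differences was tested.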

How the results depend on the processing

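Of the values under alternatives that leave out no library, 346 kept direction and side of the threshold, 11 newly passed, 46 no longer passed and 20 changed sign, most of these from values near 0; the causes were not tested beyond what each setting removes. The rises of long overlaps and of bait-end loss with ART558 in Xrcc4/p53-deficient cells lost their call only where few relabelings exist: within 1 sequencing run under aphidicolin (4 relabelings) and under the replicate block. Wild-type libraries of the chromosome 6 bait held 14 to 76 members.

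With each prey position, bait end and overlap counted once, wild-type bait-end loss was 6.30 bases (adjusted p = 0.108, exact permutation test), the genotype difference in direct joining −6.67 points (0.034) and ART558 under aphidicolin 3.65 points (0.040). With equal weight per prey position, direct joining was −0.91 points (ART558), 4.14 points (ART558 under aphidicolin) and −7.97 points (genotype), bait-end loss 1.57 bases (aphidicolin) and 3.76 bases (wild-type), wild-type insertions −4.81 points, 2 bp overlaps −0.78 points (aphidicolin) and long overlaps 5.42 points (genotype). From 500 bp, direct joining with ART558 was −2.44 points, bait-end loss 1.40 bases (aphidicolin) and 0.11 bases (aphidicolin with ART558 present), 2 bp overlaps −0.12 points (aphidicolin) and wild-type long overlaps −26.2 points. Under 5 kb, 2 bp overlaps with both drugs minus ART558 were 0.15 points. Wild-type bait-end loss was 4.62 bases with at least 50 members or without the chromosome 6 bait, where wild-type insertions were −1.63 points; it was 4.46 bases with no minimum and 4.68 bases in members without insertions. Pooled over baits, it was 1.83 bases, loss with both drugs minus ART558 0.086 bases, direct joining with ART558 under aphidicolin 4.27 points, inserts found nearby −6.98 points (aphidicolin) and long overlaps 4.09 points (genotype). The median loss gave 6.63 bases (genotype), 1.60 (aphidicolin), 0.83 (both drugs minus ART558), 4.44 (wild-type), 0.88 (long minus short members without ART558) and 6.5 (the same, wild-type), and passed except in wild-type cells and for both drugs minus ART558 (the long minus short members of wild-type cells did pass). Insertions of at least 3 bases gave 3.44 points (genotype) and 9.72 points (wild-type). With exact overlaps only, wild-type overlaps changed by −0.29 points (2 bp) and −10.1 points (4 or more), and the genotype difference in the latter was 3.99 points. Inserts found nearby with aphidicolin were −8.32 points for 15 or more bases, −5.66 within 50 bp and −7.52 within 100 bp; 10 consecutive bases gave −18.3 points for ART558 under aphidicolin.

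Within 1 sequencing run, calls were lost for ART558 in direct joining (−3.25 points) and insertions (3.00); under aphidicolin it gave 18.97 points in insertions, 6.12 bases, −7.51 points (2 bp), 8.19 points (4 or more), −23.3 points (inserts nearby) and −11.8 points (inverted); both drugs minus ART558 gave 0.97 bases, 2.20 points (2 bp), −1.84 points (4 or more) and 6.33 points (inverted); aphidicolin gave −7.81 points (inserts nearby). Same-numbered libraries correlated at −0.83 to 0.80 (median 0.15), so the replicate block pairs samples by number alone. The values listed for it lost their calls, except the genotype value, which changed sign. With the replicate block, ART558 gave −3.86 points in direct joining, 4.66 in insertions, 7.93 bases, −8.31 points (2 bp), 15.9 (4 or more), −38.7 (inserts nearby) and −35.6 (inverted); under aphidicolin 16.7 points in insertions, 8.03 bases, −10.3 (2 bp), 10.4 (4 or more), −32.6 (inserts nearby) and −28.8 (inverted); aphidicolin −3.73 points in direct joining, −6.20 in insertions, 4.28 (4 or more), −6.98 (inserts nearby) and −13.8 (inverted); wild-type 4.44 bases and −14.2 points (4 or more); genotype 5.03 points (4 or more).

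Leaving out each library in turn kept direction and side of the threshold in 721 of the values. Ranges of results with a changed call or sign were 0.51 to 1.22 bases (aphidicolin), −0.49 to 0.032 bases (both drugs minus ART558), 4.55 to 6.71 bases (wild-type), 3.55 to 5.92 bases (long minus short members, wild-type); for direct joining 3.48 to 4.77 points (ART558 under aphidicolin) and −0.86 to 0.15 points (long minus short members with ART558); for insertions −4.59 to −2.60 points (genotype) and 3.74 to 7.04 points (both drugs minus ART558); for inserts nearby −8.77 to −5.03 points (aphidicolin) and −1.87 to 0.43 points (both drugs minus ART558); for 2 bp overlaps −3.24 to 6.58 points (wild-type); and for 4 or more −0.87 to 10.2 points (genotype), −0.39 to 1.33 points (both drugs minus ART558) and −21.4 to −19.4 points (wild-type). The wild-type rise in bait-end loss was no longer called without aphidicolin replicate 2 at chromosome 14 (5.06 bases) or replicate 1 (6.71) or 2 (4.71) at chromosome 6, and the wild-type fall in long overlaps without either of the latter (−20.7 and −20.01 points). Direct joining with ART558 under aphidicolin was called without chromosome 12 aphidicolin replicate 1 (4.24 points) or without replicate 1 (3.89), 2 (3.51) or 3 (4.77) of both drugs there, replicate 1 at chromosome 6 (4.62) or replicate 1 at chromosome 8 (4.42). The wild-type loss of long minus short members passed without aphidicolin replicate 4 at chromosome 14 (5.92 bases).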
